A study of Mus musculus with 18 samples.

Results

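Induced cells collected 10 days after virus injection were compared with the acinar cells of the pancreas in mice, 3 arrays against 3, across every gene of the table. The 6 arrays were found by their sample titles among the 18 arrays of the study. Of 18118 gene symbols, 8942 were bright enough on at least 3 of the 18 arrays to be tested. Both groups, and the day 30 induced cells and endogenous beta cells used as further reference, came from Rag1-/- mice. These mice lack a gene that T and B cells need to mature. For induction, a purified adenovirus was given by injection to the splenic lobe of the dorsal part of the pancreas, islets were later removed, and the acinar fraction was digested to single cells with liberase and elastase. Cells positive for Cherry, a red fluorescent protein, were then sorted. The labels name neither the genes that the virus carried nor the age or sex of the mice, and do not say whether acinar or beta cells were sorted. No label ties the 3 arrays of a group to separate mice or pools, so the p-values rest on a spread between samples that may be technical.

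Acinar cells make the digestive enzymes of the pancreas and store them as zymogens, whereas beta cells make insulin and release it from dense granules when glucose rises. Both cell types come from a common progenitor pool in the embryo, where the transcription factor Neurog3 starts the endocrine programme and gives rise to all islet cell types. In adult mice, viral delivery of Neurog3, Pdx1 and Mafa is known to turn acinar cells into cells that make insulin. The gut uses a closely related Neurog3 programme to make enteroendocrine cells, which secrete hormones such as gastric inhibitory polypeptide, secretin and gastrin.

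Levels below are normalized log2 intensities, and differences are given in log2 units ± standard error (SE) for 3 arrays against 3. The SE comes from a spread pooled over all 6 groups of the study. Adjusted p-values are those of limma with Benjamini-Hochberg adjustment, and genes are called at an adjusted p under 0.05. Where a gene fails the rule for measured genes, given under processing, on all 3 arrays of the dimmer group, it is called not measured there. Its fold change is then a lower bound (at least N-fold). Some such genes, as Hes6 in acinar cells (mean 6.50), lay above the lowest detected signal, and there the bound equals the fitted fold. List medians are therefore also given with genes not measured in 1 group at their bound, or at 0 where no bound holds. Some genes counted as called were measured in neither group. No fold change is given for them, but they keep their fitted difference in every list median. Between 5990 and 6390 genes were detected on the acinar arrays and between 6678 and 6954 on the day 10 arrays. Acinar arrays had 25.3% to 27.8% of their signal in their 50 brightest genes and day 10 arrays had 15.3% to 15.5%. Directions near 0 depended on the scaling. Quantile normalization set the median difference of all genes to 0.014, but median scaling put it at 0.42 and the deposited signals without normalization put it at 0.60. Eif2s3y, a gene of the Y chromosome, had levels of 9.43, 9.18 and 9.30 on the acinar arrays and 7.37, 7.26 and 7.31 on the day 10 arrays (−1.99 ± 0.75, adjusted p = 0.023). That call was lost without acinar replicate 1 or day 10 replicate 2 (limma's adjusted p = 0.057 and 0.053), with median scaling (−1.29, adjusted p = 0.12) and in the deposited signals (−0.76, adjusted p = 0.15). Sex was not in the model, and its part in the results was not tested.

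Most of the transcriptome that could be measured differed between day 10 and acinar cells. Of 8942 genes, 3593 (40.2%) were called higher at day 10 and 3540 (39.6%) lower. With a difference past 2-fold as well, 1892 genes (21.2%) were higher and 1836 (20.5%) were lower. Those numbers were 3024 and 854 with median scaling, 3122 and 257 in the deposited signals, and 911 and 927 with negative controls as limma infers them from all detection p-values (limma's own controls). The higher genes made up 50.4% of the calls, a share that was 69.2% with median scaling and 85.5% with the deposited signals. For 3804 genes (42.5%) all 3 day 10 arrays lay above all 3 acinar arrays, and for 3700 (41.4%) all lay below. The shares of 40.2% called higher and 39.6% called lower are the comparison for every list count against acinar cells below.

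**Figure D1:**
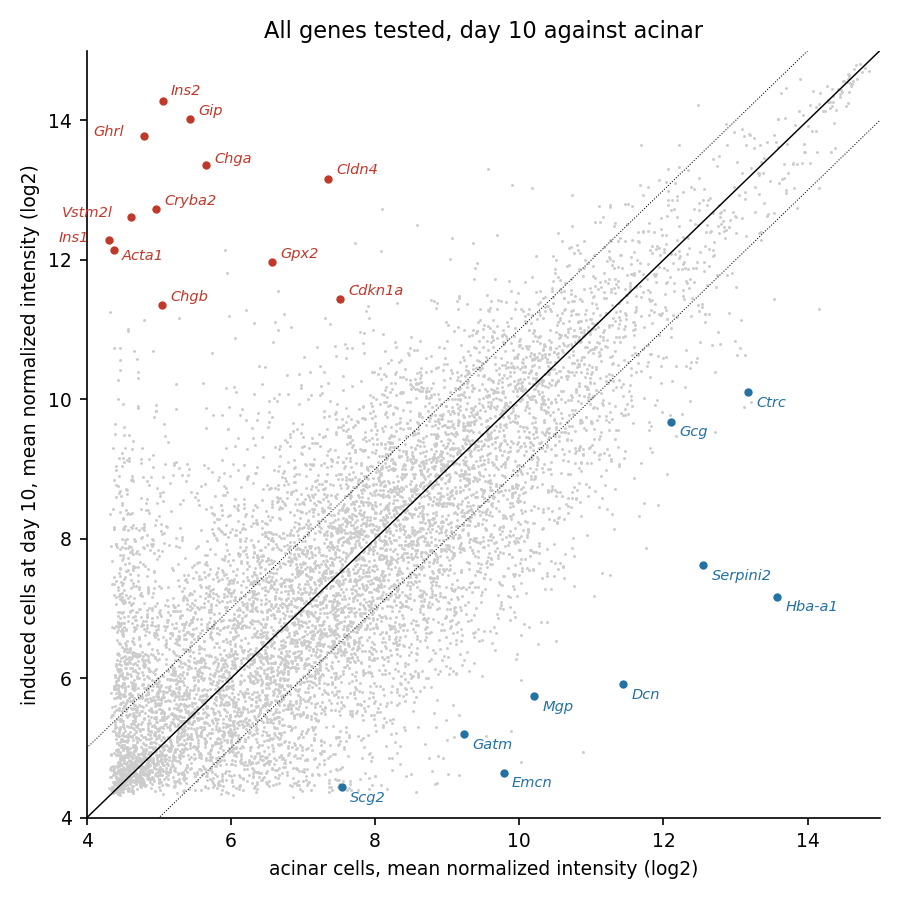
Mean normalized log2 intensity of the 8942 tested genes in induced cells at day 10 (vertical axis) against acinar cells (horizontal axis), 3 arrays a group. The solid line marks equal levels and the dotted lines a 2-fold difference. Ins2, Ghrl and Gip lie near 14 at day 10 and near 5 in acinar cells, and Hba-a1, Dcn and Serpini2 lie far below the line.

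The largest rises were hormone and granule genes. Ins2, the more ancient of the 2 insulin genes of the mouse, had levels of 5.50, 5.32 and 4.35 on the acinar arrays and 14.27, 14.32 and 14.25 on the day 10 arrays. Its deposited signals were 63.6, 60.1 and 47.0 in acinar cells and 23888, 23709 and 23045 at day 10. The acinar values lay at background and the groups were far apart. Ins2 was at least 294-fold higher at day 10 (adjusted p = 3.8e-15). Ins1, the other insulin gene, had levels of 4.35, 4.34 and 4.24 in acinar cells and 12.20, 12.28 and 12.37 at day 10, and was at least 73.8-fold higher (adjusted p = 6.0e-18). Ins2 ranked 34 in brightness among the 8942 tested genes at day 10, and whether differences are understated at such intensities was not tested. Ins2 at day 10 differed from day 30 by −0.44 ± 0.20 (adjusted p = 0.074) and from beta cells by −0.60 ± 0.20 (adjusted p = 0.013). Ins1 was still 1.88 ± 0.091 below day 30 and 2.41 ± 0.091 below beta cells (adjusted p = 1.1e-09 and 1.3e-12).

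Hormones typical of cells other than beta cells reached high levels as well. Ghrl, which encodes the appetite hormone ghrelin, had levels of 4.89, 4.61 and 4.87 on the acinar arrays and 13.83, 13.71 and 13.78 on the day 10 arrays. The rise was at least 208-fold (adjusted p = 6.0e-18). All day 10 arrays lay above all acinar arrays, as they did for 42.5% of all genes. Gip, which encodes gastric inhibitory polypeptide of intestinal K cells, had 5.36, 5.51 and 5.41 in acinar cells and 14.05, 14.01 and 14.01 at day 10, at least 246-fold higher (adjusted p = 1.4e-11). Neither gene was measured on a beta cell array. Against beta cells, Ghrl was at least 312-fold higher at day 10 and Gip at least 370.2-fold (adjusted p = 8.2e-19 and 1.2e-11).

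Further gut hormone genes were higher too. Sct, which encodes secretin, had levels of 4.66, 4.86 and 4.61 in acinar cells, 9.82, 9.89 and 9.89 at day 10, 9.16, 9.12 and 9.09 at day 30 and 4.94, 4.62 and 5.05 in beta cells. It was at least 13.9-fold higher at day 10 than in acinar cells (adjusted p = 4.0e-07) and at least 20.8-fold higher than in beta cells (adjusted p = 5.7e-07). Day 10 and day 30 did not differ past the threshold for Sct (0.75 ± 0.56, adjusted p = 0.27). Gast, which encodes gastrin of stomach G cells, had levels of 4.41, 4.36 and 4.37 in acinar cells, 8.87, 8.83 and 8.84 at day 10 and 5.64, 5.65 and 5.80 at day 30. Its day 10 arrays were the highest of the 4 groups, at least 6.82-fold above acinar cells, 3.15 ± 0.22 above day 30 and at least 10.3-fold above beta cells (adjusted p = 2.4e-11, 2.1e-08 and 1.6e-10). Hdc, whose product makes histamine and which marks enterochromaffin-like cells of the stomach, rose by 5.23 ± 0.066 from acinar levels of 5.84 to 6.09, where 1 of 3 arrays measured it (adjusted p = 1.2e-17). Beta cells had 5.75 to 5.94 for Hdc, and day 10 lay 5.37 ± 0.066 above them (adjusted p = 1.3e-18). Pyy, which encodes peptide YY of gut L cells and some islet cells, rose by 3.25 ± 0.10 (adjusted p = 1.8e-13), but stood 1.43 ± 0.10 below beta cells (adjusted p = 2.8e-09).

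The other hormones of mature islets moved less or fell. Iapp, which encodes the islet amyloid polypeptide that beta cells release with insulin, had levels of 7.00, 6.99 and 7.50 in acinar cells and 7.09, 7.05 and 6.73 at day 10. The groups overlapped and the gene was not called (−0.21 ± 0.20, adjusted p = 0.36), although it was higher by 0.50 in the deposited signals. At day 30 its levels were 9.51, 10.13 and 10.13 and in beta cells 11.91, 12.12 and 12.10. Gcg, which encodes the alpha cell hormone glucagon, had 12.11, 12.07 and 12.13 on the acinar arrays and 9.69, 9.73 and 9.63 on the day 10 arrays, and fell by 2.42 ± 0.36 (adjusted p = 1.6e-05). The acinar arrays held glucagon transcript while Ins1 and Ins2 were not measured on them. Sst, the somatostatin gene of delta cells, rose by 0.77 ± 0.25 (adjusted p = 0.01) from acinar levels of 9.99 to 10.00. Ppy, which encodes pancreatic polypeptide, fell by 1.02 ± 0.43 from 8.03 to 8.38 (adjusted p = 0.041). That call was lost without any 1 of the 6 arrays (limma's adjusted p = 0.052 to 0.098), and Ppy was higher by 0.021 in the deposited signals. The beta cell arrays, which serve as reference, also held the hormones of other islet cells, with Gcg at 14.56 to 14.59, Sst at 14.17 to 14.38 and Ppy at 12.43 to 12.62. Of 21 islet and gut hormone genes on the array 18 were tested. Among these 12 were higher at day 10 and 2 were lower, where 40.2% and 39.6% of all genes were, and 4 were not called. The median difference was 1.39, or 0.71 with genes unmeasured in 1 group at their bound, against 0.014 over all genes.

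**Figure D2:**
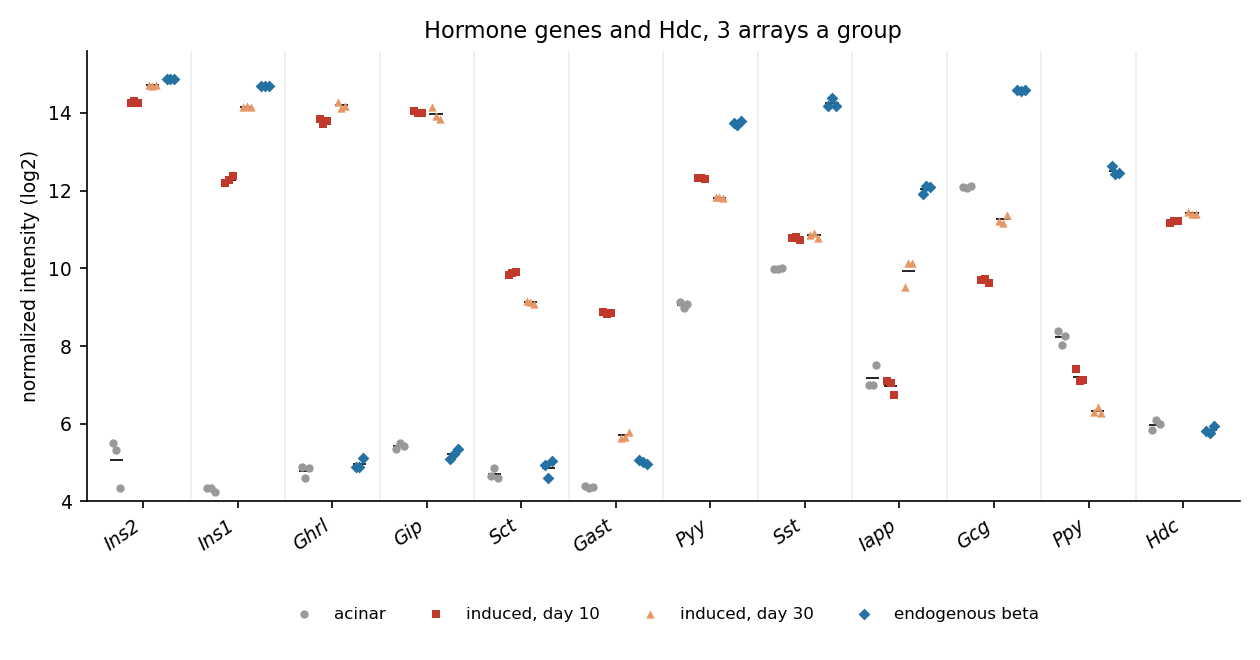
Normalized log2 intensity of 11 hormone genes and Hdc on single arrays (points) with group means (bars), for acinar cells, induced cells at day 10 and day 30 and endogenous beta cells, 3 arrays each. Ins2, Ghrl and Gip stand near 14 at day 10, Gast is highest at day 10, and Iapp at day 10 lies with acinar cells.

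Neurog3, Neurod1 and the acinar factor Ptf1a all bind E-boxes, the letters CANNTG. Promoter sequence is therefore shown for 3 hormone genes that rose and for Serpini2, which fell. These genes were picked by hand. Ins2, for which no window was available, and Ghrl are not shown. Each window runs from 250 bases before to 50 bases after the start in RefSeq, build GRCm38.p6, with every E-box in capitals. Ins1 lies at chr19:52264047-52264346 on the + strand, Gip at chr11:96024295-96024594 on the + strand, Sct at chr7:141279084-141279383 on the − strand and Serpini2 at chr3:75270029-75270328 on the − strand.
Ins1: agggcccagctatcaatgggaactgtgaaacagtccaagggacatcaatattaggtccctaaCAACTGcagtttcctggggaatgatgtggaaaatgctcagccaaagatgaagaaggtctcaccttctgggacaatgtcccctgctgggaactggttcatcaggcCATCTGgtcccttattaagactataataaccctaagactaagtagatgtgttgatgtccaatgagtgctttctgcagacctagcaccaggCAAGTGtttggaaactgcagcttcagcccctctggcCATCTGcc
Gip: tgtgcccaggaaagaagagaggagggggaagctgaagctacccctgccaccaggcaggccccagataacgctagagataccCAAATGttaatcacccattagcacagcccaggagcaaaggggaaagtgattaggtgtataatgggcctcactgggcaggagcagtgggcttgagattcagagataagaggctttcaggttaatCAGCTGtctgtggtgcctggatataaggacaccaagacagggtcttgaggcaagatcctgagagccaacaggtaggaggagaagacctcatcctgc
Sct: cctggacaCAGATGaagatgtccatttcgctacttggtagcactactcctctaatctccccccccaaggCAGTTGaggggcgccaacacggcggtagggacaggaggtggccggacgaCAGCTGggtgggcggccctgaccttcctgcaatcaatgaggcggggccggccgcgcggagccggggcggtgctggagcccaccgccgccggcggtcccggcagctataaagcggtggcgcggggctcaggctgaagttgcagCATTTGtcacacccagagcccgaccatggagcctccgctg
Serpini2: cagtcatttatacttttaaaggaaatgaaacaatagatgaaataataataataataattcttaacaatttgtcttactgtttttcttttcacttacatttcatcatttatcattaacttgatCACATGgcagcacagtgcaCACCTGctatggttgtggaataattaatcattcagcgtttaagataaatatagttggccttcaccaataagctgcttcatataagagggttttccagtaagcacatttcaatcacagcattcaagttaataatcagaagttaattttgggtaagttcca
Ins1 held 4 E-boxes and Sct held 4, while Gip and Serpini2 held 2 each. The form CATCTG, or CAGATG on the other strand, which Neurod1 and Neurog3 are known to prefer, was found 2 times in Ins1, 84 bases before and 43 bases after the start. It was found 1 time in Sct, 242 bases before the start, and not in these windows of Gip and Serpini2. The 32851 RefSeq promoter windows used left out 1 chromosome. Of these windows, 72.3% held CANNTG and 17.2% held CATCTG or CAGATG on either strand, and the first motif contains the second. Among windows of genes called higher past 2-fold, 12.3% of 1908 held CATCTG or CAGATG, against 12.2% of 1716 for genes called lower past 2-fold and 11.4% of 5117 for other tested genes. For CANNTG the shares were 68.2%, 63.2% and 64.7% in the same order. These matches describe letters, not binding.

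Proteins of the secretory granule rose with the hormones. Chga, which encodes chromogranin A, had levels of 5.89, 5.81 and 5.29 in acinar cells and 13.40, 13.33 and 13.35 at day 10, at least 156-fold higher (adjusted p = 2.3e-16). Chgb, which encodes chromogranin B, had 5.58, 4.80 and 4.76 and 11.35, 11.38 and 11.34, at least 38.8-fold higher (adjusted p = 2.9e-14). Acinar arrays lay at background for both genes. Pcsk2, a protease that cuts prohormones, was measured on 1 acinar array and rose by 5.86 ± 0.10 (adjusted p = 4.7e-16). Of 15 tested granule and processing genes, 13 were higher, 1 was lower and 1 was not called. Their median was 4.33 (3.01 at bounds, 1.59 with limma's own controls). The 4.33 is the fitted value of Sez6l2, which failed the rule for measured genes in both groups. Its mean level was nonetheless 8.77 at day 10, against 4.44 in acinar cells. The gene that was lower was Scg2, which encodes secretogranin II, with acinar levels of 7.35, 7.55 and 7.72 and day 10 levels of 4.43, 4.35 and 4.53, at least 3.22-fold lower (adjusted p = 8.2e-11). In beta cells Scg2 stood at 14.37, 14.39 and 14.33. The gene not called was Slc30a8, the zinc transporter of insulin granules, which was not measured in acinar cells or at day 10 and stood at 10.03, 9.94 and 9.98 in beta cells. Against day 30, 10 of the 15 genes were lower at day 10 and 1 was higher, where 31.1% and 30.0% of all genes were. Against beta cells 14 were lower and 1 was higher, where 42.0% and 38.0% of all genes were. The comparisons share the day 10 arrays.

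Most transcription factors of the endocrine lineage were higher. Neurog3, which starts the endocrine programme, had levels of 4.50, 4.46 and 4.50 in acinar cells and 7.88, 7.92 and 7.87 at day 10, at least 3.51-fold higher (adjusted p = 7.3e-07). Its day 10 levels also exceeded day 30 by 1.43 ± 0.39 and beta cells by 2.09 ± 0.39 (adjusted p = 0.005 and 1.4e-04). Mafa, which activates insulin transcription in mature beta cells, had 4.45, 4.45 and 4.55 and 8.53, 8.53 and 8.39, at least 5.31-fold higher (adjusted p = 2.3e-13). For these genes the arrays cannot separate transcripts of a virus from those of the cell's own copy. Insm1, a zinc finger factor that follows Neurog3, had 5.20, 4.90 and 4.65 in acinar cells and 10.72, 10.74 and 10.64 at day 10, at least 24.6-fold higher (adjusted p = 6.9e-15). Nkx2-2, a homeobox factor needed for beta cells, was at least 7.17-fold higher (adjusted p = 1.4e-13). Neurod1 and Pax4, which act downstream of Neurog3, had day 10 levels of 6.21 to 6.43 and 6.39 to 6.59. They were at least 1.16-fold and 1.35-fold higher than in acinar cells (adjusted p = 9.1e-11 and 2.5e-06) and still below day 30 by 1.53 ± 0.093 and 1.84 ± 0.25 (adjusted p = 7.3e-09 and 1.6e-05). The call of Pax4 was lost with negative controls as limma infers them (adjusted p = 0.32). Fev, a factor of serotonin neurons that endocrine precursors also express, was at least 2.42-fold higher than in acinar cells (adjusted p = 5.8e-10) and at least 3.64-fold higher than in beta cells (adjusted p = 1.1e-09).

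Of 27 islet factors on the array 18 were tested, of which 15 were higher and 3 were lower (median 2.63, 1.22 at bounds). Past 2-fold 15 were higher, but only 5 with limma's own controls, which put the median at 0.66. Among the 3 that were lower, Pdx1, needed for pancreas formation and beta cell identity, had levels of 7.63, 7.73 and 7.88 in acinar cells, 7.32, 7.26 and 7.05 at day 10 and 9.93, 9.98 and 9.89 in beta cells. It fell by 0.54 ± 0.098 (adjusted p = 1.2e-04), but was higher by 0.071 with median scaling and 0.35 in the deposited signals. Isl1, a LIM homeobox factor of all islet cell types, had 6.32, 6.19 and 6.01 in acinar cells, was not measured at day 10 and stood at 11.83, 11.91 and 11.98 in beta cells (at least 1.25-fold lower than in acinar cells, adjusted p = 1.3e-06). The call of Isl1 was lost in the deposited signals (adjusted p = 0.18). Hhex, a homeobox factor of delta cells and ducts, fell by 2.09 ± 0.17 (adjusted p = 1.4e-08).

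Genes tied to Neurog3 during endocrine differentiation were mostly higher, 18 of 21 tested with 2 lower and 1 not called (median 2.18, 0.81 at bounds). Past 2-fold 16 were higher, but only 8 with limma's own controls, which put the median at 0.35. This list shares Insm1, Neurod1, Nkx2-2, Chga and others with those above. Hes6, a helix-loop-helix gene that Neurog3 activates, was at least 4.84-fold higher (adjusted p = 1.7e-10). Stmn2, a microtubule regulator of neurons, was at least 1.13-fold lower (adjusted p = 0.0023), a call lost in the deposited signals (adjusted p = 0.45) and with negative controls as limma infers them (adjusted p = 0.057). Notch signalling, which holds back Neurog3 in the embryo, had 3 of 12 tested genes higher and 6 lower. Hey1, a Notch target measured on 2 of 3 day 10 arrays, fell by 1.74 ± 0.099 (adjusted p = 1.6e-10), and the receptor gene Notch1 fell by 1.26 ± 0.13 (adjusted p = 3.1e-07). Nrarp, a feedback inhibitor induced by Notch, fell by 1.22 ± 0.15 (adjusted p = 1.2e-06). In the deposited signals the calls of Notch1 and Nrarp were lost (adjusted p = 0.22 and 0.54). Dtx2, which encodes a deltex ubiquitin ligase, rose by 3.32 ± 0.12 (adjusted p = 6.1e-13). The median of the Notch list was −0.37, also at bounds, and turned to 0.036 with median scaling and 0.34 in the deposited signals.

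Genes of glucose sensing and exocytosis were mostly higher at day 10. Slc2a2, the glucose transporter of beta cells, had levels of 5.19, 4.88 and 4.80 in acinar cells and 8.32, 8.23 and 8.26 at day 10, at least 4.57-fold higher (adjusted p = 3.8e-12). Its difference from beta cells was −0.23 ± 0.14 and did not pass the threshold (adjusted p = 0.14). Abcc8, the sulfonylurea receptor subunit of the KATP channel, was at least 14.2-fold higher than in acinar cells (adjusted p = 6.7e-15) and 1.08 ± 0.12 below beta cells (adjusted p = 5.6e-07). Cacna1h, a T-type calcium channel subunit, was at least 13.6-fold higher than in acinar cells and at least 20.4-fold higher than in beta cells (adjusted p = 3.7e-15 and 4.5e-15). Of 16 genes tested in this list 11 were higher, 2 were lower and 3 were not called (median 2.93, 1.74 at bounds, 1.04 with limma's own controls).

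Of 20 tested exocytosis genes 15 were higher, 1 was lower and 4 were not called (median 1.40, 0.29 at bounds, 0.16 with limma's own controls). Among all genes 40.2% were higher and 39.6% lower. Vamp2, a vesicle SNARE, rose by 3.56 ± 0.10 (adjusted p = 6.2e-14). Syt13, an atypical synaptotagmin of endocrine precursors, was at least 6.10-fold higher (adjusted p = 6.6e-14). Syt4, a synaptotagmin of mature beta cells, was not measured in acinar cells or at day 10 and stood at 13.31, 13.33 and 13.25 in beta cells. The gene that was lower was Vamp8, a SNARE of zymogen granules, which fell by 0.67 ± 0.063 (adjusted p = 8.0e-08) but was higher by 0.37 with median scaling and 0.62 in the deposited signals. Gjd2, the connexin that couples beta cells, was likewise unmeasured in both groups, with levels of 8.01, 7.95 and 7.95 at day 30 and 11.06, 11.18 and 11.06 in beta cells. Neuronal genes that islets share were higher for 13 of 15 tested and lower for 2 (median 1.91, 0.87 at bounds, 0.30 with limma's own controls), with Syp, a synaptic vesicle protein gene, up by 4.19 ± 0.10 (adjusted p = 1.1e-14).

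Several of the largest rises were genes outside these lists. Cryba2, a crystallin gene, had levels of 5.48, 4.74 and 4.66 in acinar cells and 12.75, 12.75 and 12.71 at day 10, at least 101-fold higher (adjusted p = 2.7e-14). Vstm2l, a secreted immunoglobulin-domain gene, had 4.48, 4.64 and 4.70 and 12.61, 12.63 and 12.58, at least 92.5-fold higher (adjusted p = 3.3e-15). Acta1, the actin of skeletal muscle, had 4.37, 4.39 and 4.37 and 12.12, 12.13 and 12.18, at least 67.0-fold higher (adjusted p = 7.2e-13). Beta cells held less Acta1 by 5.17 ± 0.28 and less Cryba2 by 2.95 ± 0.21 (adjusted p = 9.3e-11 and 1.9e-09), whereas Vstm2l did not differ from beta cells past the threshold (−0.29 ± 0.17, adjusted p = 0.13). Atp2a3, a calcium pump of the endoplasmic reticulum, was at least 66.7-fold higher than in acinar cells (adjusted p = 1.2e-17). Neurl1a, a ubiquitin ligase of the neuralized family, was at least 44.1-fold higher (adjusted p = 1.4e-16).

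Most digestive enzyme genes of the acinar cell were not called, but they stood at the top of the intensity range in both groups. Of 22 tested enzyme genes 19 were among the 100 brightest tested genes in acinar cells and at day 10 alike, 17 of them not called and 2 lower. The other 3 were all lower. Whether the arrays understate differences at such intensities was not tested. Cpa1, which encodes carboxypeptidase A1, had levels of 14.27, 14.23 and 14.21 in acinar cells and 14.12, 14.21 and 14.10 at day 10, and 8.68, 8.62 and 8.45 in beta cells. The acinar and day 10 arrays differed by less than the test could call (−0.094 ± 0.066, adjusted p = 0.2). The deposited signals of Cpa1 were 22776, 22012 and 22632 in acinar cells and 22944, 22812 and 21328 at day 10, so the raw values overlapped as well. Of 10 tested trypsins, chymotrypsins and elastases none was higher, 1 was lower and 9 were not called (median −0.060, with and without bounds). Of 12 lipases, amylases, carboxypeptidases and nucleases 4 were lower and 8 were not called (median −0.095, with and without bounds). This depended on the scaling. With median scaling 9 of 10 and 12 of 12 were lower, with medians of −0.40 and −0.39 against 0.42 for all genes. In the deposited signals 5 and 4 were lower and the medians were −0.15 and −0.14 against 0.60 for all genes.

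Some acinar genes fell sharply all the same. Serpini2, a serpin of the exocrine pancreas, had levels of 12.52, 12.40 and 12.72 on the acinar arrays and 7.53, 7.64 and 7.70 on the day 10 arrays, and fell by 4.93 ± 0.26 (adjusted p = 6.0e-11). It was not measured in beta cells, and day 30 levels of 8.08, 8.34 and 8.26 did not differ from day 10 past the threshold (adjusted p = 0.056). Ctrc, chymotrypsin C, had 13.13, 13.21 and 13.19 in acinar cells and 10.16, 10.07 and 10.09 at day 10, and fell by 3.07 ± 0.17 (adjusted p = 8.5e-11). Amy1, the salivary-type amylase, fell by 3.00 ± 0.25 from 10.60 to 10.63 (adjusted p = 1.7e-08). For these 3 genes all day 10 arrays lay below all acinar arrays, as they did for 41.4% of all genes. Serpini2 was a marker of the comparison and the others had the largest falls of their lists. Their separation was therefore set by that choice.

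The zymogen granule list held genes that moved in opposite directions. Of 21 tested 6 were higher, 7 were lower and 8 were not called (median −0.063, with and without bounds). Aqp8 and Aqp12 are both water channels of acinar cells. Aqp8 had levels of 7.89, 7.90 and 7.82 in acinar cells and 11.32, 11.26 and 11.22 at day 10 and rose by 3.39 ± 0.30 (adjusted p = 3.1e-08). Aqp12 had 11.72, 11.70 and 11.64 and 9.08, 9.02 and 9.18 and fell by 2.59 ± 0.077 (adjusted p = 8.5e-14). Ttr, the thyroxine carrier that islet cells also make, rose by 3.74 ± 0.089 (adjusted p = 8.1e-15). Gp2, the major membrane protein of zymogen granules, had acinar levels of 14.63 to 14.66 and day 10 levels of 14.66 to 14.81 and was not called (adjusted p = 0.19), though its difference was −0.34 with median scaling. In the regenerating protein family, Reg3g fell by 2.10 ± 0.33 (adjusted p = 2.9e-05), 1 further gene was lower and 3 of 5 were not called.

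Acinar transcription factors were lower for 6 of 8 tested and higher for 2 (median −0.79, −0.63 at bounds), although median scaling put the median at −0.077 and the deposited signals at 0.19. Bhlha15, also called Mist1, which organises the secretory apparatus, had levels of 11.46, 11.48 and 11.47 and 9.81, 9.88 and 9.88 and fell by 1.61 ± 0.087 (adjusted p = 9.0e-11). Tead2 fell by 1.84 ± 0.16 (adjusted p = 3.0e-08), and Nr5a2, a nuclear receptor that works with Ptf1a, was at least 1.57-fold lower (adjusted p = 3.4e-09), a call lost in the deposited signals (adjusted p = 0.64). Ptf1a, the factor that specifies acinar cells, had 11.02, 11.08 and 11.09 in acinar cells and 10.46, 10.49 and 10.43 at day 10, and was not measured in beta cells. It fell by 0.61 ± 0.20 (adjusted p = 0.011), but was higher by 0.47 with median scaling and 0.71 in the deposited signals.

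**Figure D3:**
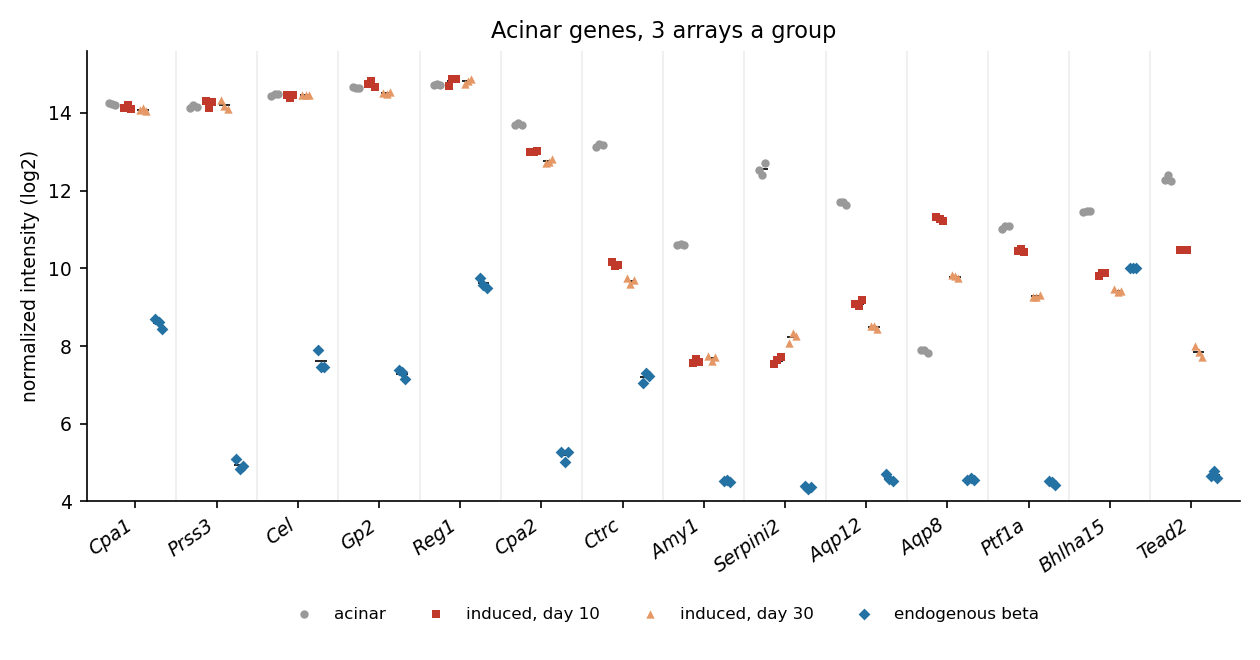
Normalized log2 intensity of 14 acinar genes on single arrays (points) with group means (bars), for acinar cells, induced cells at day 10 and day 30 and endogenous beta cells, 3 arrays each. Cpa1, Cel, Gp2 and Reg1 lie at the top of the range in both acinar and day 10 cells, Serpini2, Ctrc, Amy1 and Aqp12 are lower, and Aqp8 is higher than in acinar cells.

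Metabolic genes in which acinar cells are rich were lower at day 10. Gatm, the first enzyme of creatine synthesis, had levels of 9.14, 9.13 and 9.42 in acinar cells and 5.26, 4.88 and 5.46 at day 10, at least 10.4-fold lower (adjusted p = 1.3e-13). Ahcy and Gnmt, which turn over S-adenosylmethionine, fell by 2.65 ± 0.11 and 2.30 ± 0.092 (adjusted p = 3.4e-12 and 2.3e-12). Mat2a, which makes S-adenosylmethionine, fell by 2.33 ± 0.066 (adjusted p = 5.2e-14). Of 14 genes for creatine, serine, glycine and methionine metabolism 10 were lower and 4 were higher, with a median of −1.51 (also at bounds), −0.66 with median scaling and −0.34 in the deposited signals. Within serine synthesis, Phgdh, the first enzyme, rose by 3.37 ± 0.20 from acinar levels that 1 of 3 arrays measured (adjusted p = 2.9e-10) while Psat1, the next, fell by 2.21 ± 0.18 (adjusted p = 1.3e-08).

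Cytosolic tRNA synthetases, which load amino acids for protein synthesis, were lower for 12 of 19 tested and higher for 2, with a median of −0.83 (−0.44 at bounds). Median scaling put it at −0.031, and the deposited signals turned it to 0.35. Nars, for asparagine, fell by 3.18 ± 0.099 and Mars1, for methionine, by 2.25 ± 0.082 (adjusted p = 1.6e-13 and 7.3e-13). Genes of protein entry into the endoplasmic reticulum, glycosylation and vesicle transport were mixed, 13 of 33 tested higher and 17 lower (median −0.25, also at bounds). This turned to 19 higher and 8 lower with median scaling (median 0.60) and 24 higher and 5 lower in the deposited signals (median 0.84). Kdelr2, which returns escaped proteins to that compartment, rose by 2.83 ± 0.094 (adjusted p = 3.1e-13). Ssr3 and Spcs3, parts of the entry machinery, fell by 2.15 ± 0.074 and 2.33 ± 0.092 (adjusted p = 3.9e-13 and 1.9e-12). Of 14 tested glycolysis genes 12 were higher, where 40.2% of all genes were, 1 was lower and 1 was not called (median 1.54, 1.16 at bounds). Pfkl, a phosphofructokinase, rose by 2.08 ± 0.087 and Eno1, an enolase, by 2.45 ± 0.091 (adjusted p = 3.7e-12 and 1.1e-12). The 55 cytosolic ribosomal proteins and 63 respiratory chain subunits had medians of −0.12 and −0.071, near that of all genes, and 0.17 and 1.00 with median scaling.

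Genes that p53 induces or that arrest the cell cycle did not move as a block. Cdkn1a, which encodes the cell cycle inhibitor p21 and is a target of both p53 and Neurog3, had levels of 7.42, 7.53 and 7.59 in acinar cells, measured on 2 of 3 arrays, and 11.48, 11.40 and 11.46 at day 10. It rose by 3.93 ± 0.085 (adjusted p = 3.5e-15). Cdkn1c, which encodes the inhibitor p57, had 8.07, 8.04 and 8.13 and 12.07, 12.14 and 12.17, rose by 4.05 ± 0.18 (adjusted p = 8.1e-12) and was not measured in beta cells. The p53 targets Phlda3 and Gdf15 had day 10 levels of 9.38 to 9.40 and 9.68 to 9.90. Phlda3 was at least 9.94-fold higher and Gdf15 rose by 3.43 ± 0.33 (adjusted p = 1.6e-12 and 8.7e-08). Other p53 targets were lower: Plk2, a polo-like kinase, fell by 2.63 ± 0.11, and Fas, a death receptor gene, was at least 3.23-fold lower (adjusted p = 2.9e-12 and 4.7e-06). Mdm2, the p53 inhibitor that p53 induces, was measured on 2 of 3 acinar arrays. It fell by 0.67 ± 0.079 (adjusted p = 1.1e-06), but was higher by 0.13 with median scaling and 0.39 in the deposited signals. In all 10 of 19 tested p53 targets were higher and 5 were lower, where 40.2% and 39.6% of all genes were. The other 4 were not called (median 0.60, also at bounds). With negative controls as limma infers them the p53 median was 0.11. Cell cycle genes were lower for 9 of 13 tested and higher for 3 (median −1.19, −0.99 at bounds). Their median was −0.51 with median scaling and −0.28 with limma's own controls, and the deposited signals gave 5 higher and 5 lower with a median of −0.11.

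Immediate early genes, which respond within minutes to growth factors, stress and cell handling, were higher for 15 of 18 tested and lower for 2 (median 1.55, 1.33 at bounds). Atf3, a stress-induced factor, had levels of 6.55, 6.41 and 6.32 in acinar cells and 10.19, 10.21 and 10.25 at day 10 and rose by 3.79 ± 0.12 (adjusted p = 1.5e-13). Fosb rose by 3.41 ± 0.090 (adjusted p = 2.5e-14). Day 10 was lower than day 30 for 13 of the 18 genes, where 31.1% of all genes were, and higher for 3, where 30.0% were. Heat shock genes were evenly split, 6 of 12 tested higher and 6 lower (median 0.020, also at bounds), but 8 higher and 1 lower with median scaling. Hspa1a, an inducible heat shock protein, was at least 6.02-fold higher and Hspb1, a small heat shock protein, rose by 2.89 ± 0.071 (adjusted p = 3.4e-13 and 1.2e-14). Hspd1, a chaperone of mitochondria, fell by 1.73 ± 0.088 (adjusted p = 3.8e-11). Gpx2, a glutathione peroxidase of the gut, had levels of 6.77, 6.33 and 6.61 in acinar cells and 11.98, 12.02 and 11.92 at day 10 and rose by 5.40 ± 0.36 (adjusted p = 1.1e-09). Gpx3 rose by 4.63 ± 0.067 and Nqo1, a quinone reductase under the control of the factor NRF2, was at least 2.78-fold higher (adjusted p = 5.3e-17 and 1.2e-11). The catalase gene Cat fell by 1.97 ± 0.10 (adjusted p = 4.5e-11). The redox list had 9 of 19 tested genes higher and 6 lower, where 40.2% and 39.6% of all genes were (median −0.021, 0 at bounds). With median scaling it had 12 higher and 4 lower (median 1.08). Genes of the unfolded protein response were higher for 7 of 18 tested and lower for 10 (median −0.29, also at bounds), but 11 higher and 4 lower with median scaling (median 0.63).

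Markers of macrophages were higher at day 10. Of 18 tested 13 were higher and 3 were lower, where 40.2% and 39.6% of all genes were, and 2 were not called (median 1.14, 1.05 at bounds). Their summed normalized intensity was 3642 to 3799 on the acinar arrays and 9037 to 9190 on the day 10 arrays. Cd68, a lysosomal protein of macrophages, had levels of 4.93, 5.61 and 4.65 in acinar cells and 8.66, 8.69 and 8.66 at day 10, at least 6.03-fold higher (adjusted p = 1.4e-09). The complement genes C1qa, C1qb and C1qc were higher too, C1qa at least 7.91-fold, C1qb by 2.00 ± 0.41 and C1qc by 2.20 ± 0.38 (adjusted p = 1.4e-07, 3.2e-04 and 7.0e-05). Mrc1, a mannose receptor of resident macrophages, was at least 3.86-fold lower (adjusted p = 2.4e-06). Adgre1, which encodes the macrophage antigen F4/80, was at least 1.96-fold higher (adjusted p = 1.2e-06), and Ptprc, the CD45 gene of all leukocytes, was measured in neither group and was not tested. Against day 30, 16 of the 18 markers were higher at day 10, where 30.0% of all genes were, and none was lower, where 31.1% were. The median against acinar cells was 0.44 with limma's own controls.

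Most antigen presentation genes were higher as well. The class II genes H2-Aa and H2-Ab1 had day 10 levels of 10.58 to 10.71 and 10.60 to 10.64 and rose by 2.18 ± 0.22 and 1.40 ± 0.24 (adjusted p = 1.9e-07 and 6.5e-05). Of 6 tested class II genes 4 were higher and 2, the invariant chain Cd74 and H2-DMb1, were not called (median 1.24, with and without bounds). With median scaling Cd74 was higher by 1.15. Of 11 class I genes 10 were higher and 1 was lower (median 1.87, 1.81 at bounds). Summed normalized intensity of the class I list was nonetheless lower, 9936 to 10260 on the acinar arrays and 7802 to 8006 on the day 10 arrays. For class II it was 2890 to 3101 and 5993 to 6188. Tapbp, which helps to load peptides on class I molecules and was measured on 1 of 3 acinar arrays, rose by 2.47 ± 0.12 (adjusted p = 1.5e-11). The gene that was lower was Psmb10, a subunit of the immunoproteasome, which fell by 1.94 ± 0.086 (adjusted p = 7.8e-12). Of 23 interferon-stimulated genes 12 were higher and 8 were lower, where 40.2% and 39.6% of all genes were (median 0.41, 0.33 at bounds, 1.04 with median scaling). Their summed intensity was 9489 to 10805 in acinar cells and 6896 to 7110 at day 10. Usp18, measured on 1 of 3 acinar arrays, rose by 1.67 ± 0.097 and Ly6e fell by 1.88 ± 0.21 (adjusted p = 2.2e-10 and 6.9e-07). Among 16 tested NF-kappa-B targets, chemokines and acute phase genes 10 were higher and 4 were lower, where 40.2% and 39.6% of all genes were. The other 2 were not called (median 1.41, 0.29 at bounds). With limma's own controls 5 were higher and 3 lower (median 0.19). The chemokine gene Cxcl1 was at least 10.5-fold higher and Il1b at least 3.85-fold (adjusted p = 8.1e-06 and 2.3e-09), while complement C3 fell by 2.87 ± 0.41 (adjusted p = 9.5e-06). The part of macrophages in these values was not tested. In bulk samples, fewer cells of a type and less RNA per cell cannot be told apart.

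Most markers of blood vessels, connective tissue and blood were lower at day 10. Dcn, a proteoglycan of fibroblasts, had levels of 11.43, 11.42 and 11.48 on the acinar arrays and 5.95, 5.96 and 5.83 on the day 10 arrays, measured on 2 of those 3, and fell by 5.53 ± 0.26 (adjusted p = 1.9e-11). Mgp, a matrix protein measured on 1 of 3 day 10 arrays, fell by 4.46 ± 0.28 (adjusted p = 4.4e-10). Of 19 mesenchymal markers 18 were lower and 1 was not called (median −2.31, −1.84 at bounds). In the deposited signals 9 were lower (median −0.54), and with limma's own controls 13 (median −0.52). Their summed intensity was 7896 to 7979 in acinar cells and 1009 to 1033 at day 10. Of 11 endothelial markers 9 were lower and 2 were not called (median −2.17, −1.64 at bounds). In the deposited signals 6 were lower and 3 higher (median −0.58), and limma's own controls put the median at −0.57. Emcn, a sialomucin of endothelium, was at least 15.3-fold lower and Pecam1 at least 5.20-fold (adjusted p = 1.1e-11 and 2.0e-09). Hba-a1, an alpha globin gene, had 13.59, 13.56 and 13.58 in acinar cells and 7.20, 7.06 and 7.26 at day 10 and fell by 6.40 ± 0.72 (adjusted p = 5.9e-07). Hbb-b1, a beta globin gene, was at least 32.6-fold lower (adjusted p = 6.4e-07). Of 4 tested red blood cell markers 3 were lower and 1 was higher, Slc4a1, the band 3 anion exchanger, at least 1.07-fold (adjusted p = 1.6e-05). The summed intensity of these 4 markers was 14558 to 14683 in acinar cells and 259 to 284 at day 10. The part that these cells had in the acinar values was not tested.

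Keratins and duct markers split. Krt19 and Krt7, keratins of duct cells, had day 10 levels of 9.61 to 9.69 and 10.06 to 10.33 and rose by 2.79 ± 0.26 and 3.24 ± 0.11 (adjusted p = 6.8e-08 and 3.4e-13). Krt8 and Krt18, the keratin pair of simple epithelia, rose by 1.74 ± 0.083 and 1.21 ± 0.10 (adjusted p = 2.0e-11 and 2.0e-08). Cldn4, a tight junction claudin, had 7.34, 7.43 and 7.29 in acinar cells and 13.16, 13.16 and 13.18 at day 10 and rose by 5.81 ± 0.11 (adjusted p = 5.3e-16). Sox9, a transcription factor of ducts, fell by 1.33 ± 0.16 (adjusted p = 1.7e-06), a call lost in the deposited signals (adjusted p = 0.20). Cftr, the chloride channel of duct cells, was not measured in either group. Of 15 tested duct genes 8 were higher, 6 were lower and 1 was not called (median 1.21, 0 at bounds, 0.15 with limma's own controls). Among junction genes Cldn6 rose by 3.11 ± 0.12, and the connexin gene Gja1 fell by 2.46 ± 0.25 (adjusted p = 1.6e-12 and 1.7e-07). Yap1, the effector of the Hippo pathway, which duct cells express and endocrine cells do not, was at least 6.69-fold lower (adjusted p = 1.6e-13).

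**Figure D4:**
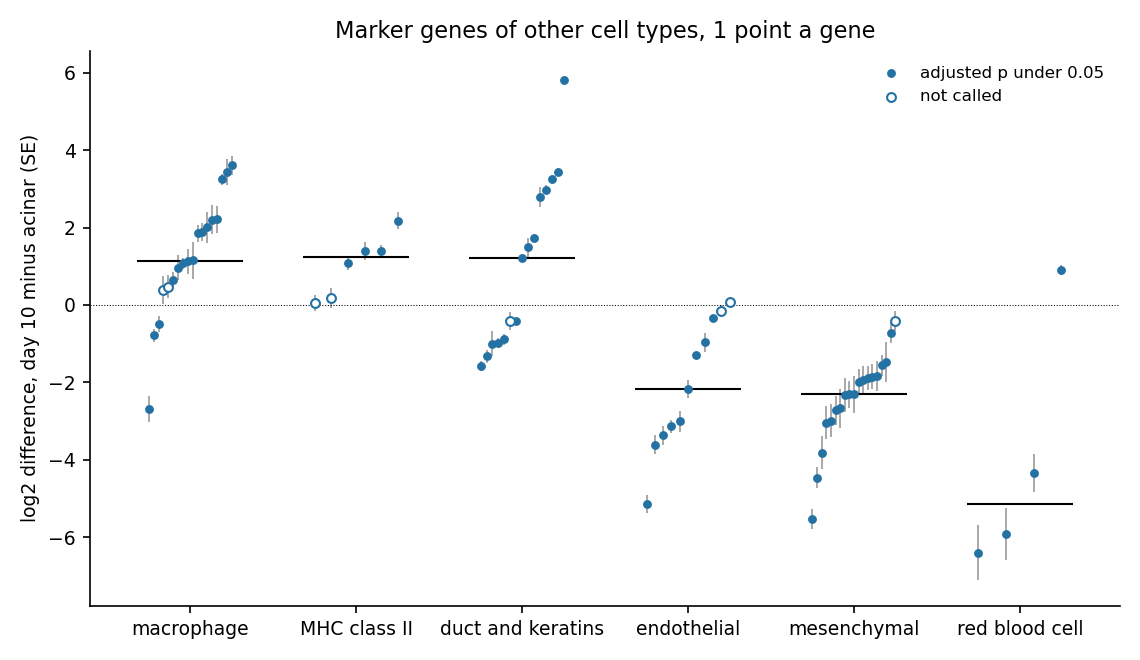
Log2 difference, day 10 minus acinar, of each tested marker of other cell types and of MHC class II genes (points with SE, n = 3 against 3 arrays; bars are medians, open points were not called). Of the mesenchymal markers 18 of 19 and of the endothelial markers 9 of 11 were called lower, and of the macrophage markers 13 of 18 were called higher.

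Chromatin, growth factor and housekeeping lists gave smaller or mixed differences. Bmi1 and Suz12, members of the Polycomb repressor complexes, the first measured on 2 of 3 day 10 arrays, fell by 2.36 ± 0.14 and 1.78 ± 0.088 (adjusted p = 3.1e-10 and 2.9e-11). Kdm6b, a demethylase that removes the Polycomb mark and was measured on 1 of 3 acinar arrays, rose by 2.86 ± 0.10 (adjusted p = 6.4e-13). Among genes of TGF-beta and BMP signalling, Bmp1, a protease that matures collagen, rose by 3.35 ± 0.081 and Bmpr1a, a BMP receptor, fell by 1.61 ± 0.11 (adjusted p = 9.5e-15 and 2.6e-09). Genes that mature beta cells keep silent, known as disallowed genes, had 8 of 14 tested members lower than in acinar cells and 3 higher (median −0.60, also at bounds), but 5 higher and 5 lower with median scaling (median 0.18) and 7 higher and 5 lower in the deposited signals (median 0.43). Nfib, a factor of that list, fell by 3.67 ± 0.31 and Zyx, a focal adhesion gene, rose by 2.85 ± 0.082 (adjusted p = 2.1e-08 and 6.1e-14). Against beta cells 12 of the 14 disallowed genes were higher at day 10, where 38.0% of all genes were, and none was lower, where 42.0% were. In the proteasome list 18 of 28 tested subunits were higher and 7 were lower (median 0.40, 0.34 at bounds, 1.28 with median scaling). In the lysosome and autophagy list 10 of 17 were higher and 4 were lower, where 40.2% and 39.6% of all genes were (median 0.45, also at bounds, 1.35 with median scaling). Zinc transporters had a median of −0.019, also at bounds, with 3 of 15 higher and 6 lower, but this turned to 9 higher and 4 lower with median scaling (median 0.48) and 10 higher and 1 lower in the deposited signals (median 0.68).

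**Figure D5:**
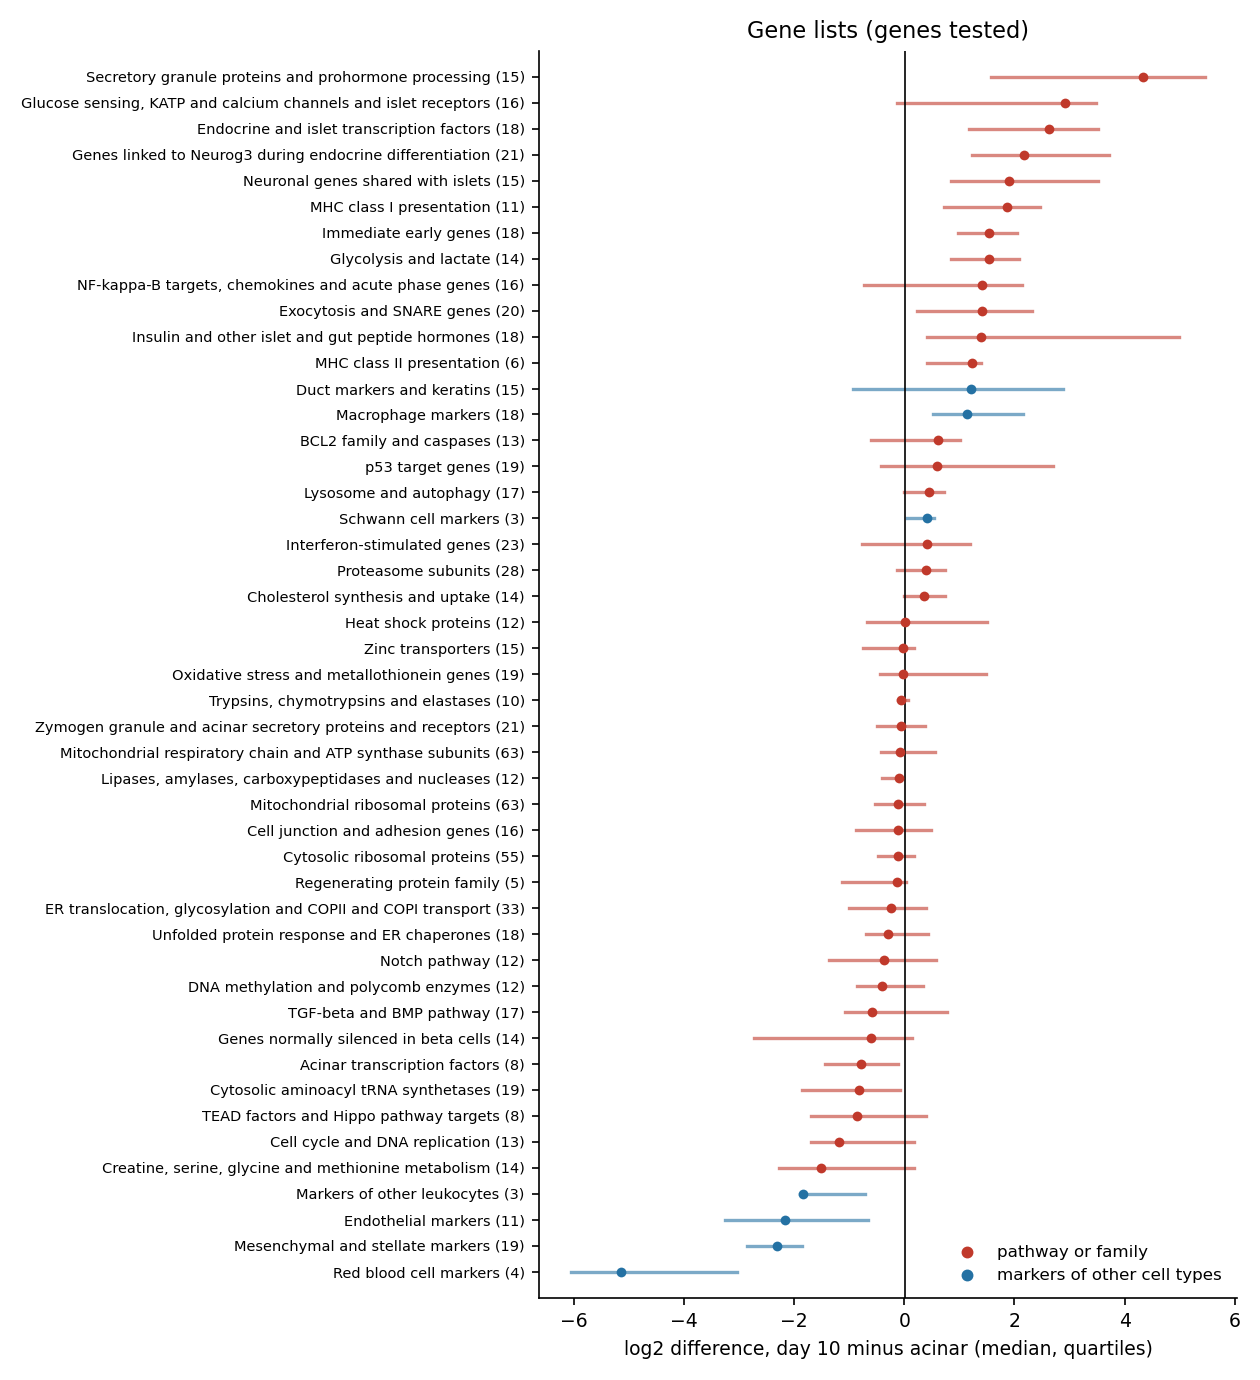
Median (point) and quartiles (line) of the log2 difference, day 10 minus acinar, for 47 gene lists, with the number of tested genes in brackets. The vertical line is the median of all 8942 tested genes, 0.014. Granule genes have the highest median, 4.33, and red blood cell markers the lowest, −5.13. Medians use fitted differences, also for genes not measured in a group.

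Some genes were at their extreme on the day 10 arrays. In 1218 of 8942 genes all day 10 arrays lay above every acinar, day 30 and beta cell array with all 3 differences called, and in 122 of these each difference was past 2-fold. Besides Gast, the largest such peaks were BC004853, Slc5a10, a sodium-dependent sugar transporter gene, and the macrophage genes Ms4a7 and Fcgr4. Slc5a10 had levels of 4.44, 4.44 and 4.57 in acinar cells, 8.67, 8.66 and 8.52 at day 10, 6.07, 6.29 and 6.14 at day 30 and 4.91, 4.59 and 4.66 in beta cells. It was 2.45 ± 0.39 above day 30 (adjusted p = 5.9e-05). In 1311 genes all day 10 arrays lay below the other 3 groups in the same sense, 85 of them past 2-fold. The largest such troughs included Gcg, given above, and Lpl, lipoprotein lipase, with 11.46, 11.52 and 11.41 in acinar cells, 9.80, 9.76 and 9.78 at day 10, 11.61, 11.60 and 11.64 at day 30 and 12.16, 12.12 and 12.25 in beta cells. Lpl was 1.68 ± 0.079 below acinar cells, 1.84 ± 0.079 below day 30 and 2.40 ± 0.079 below beta cells (adjusted p = 1.5e-11, 2.6e-10 and 2.7e-13). Krcc1, Ranbp9 and Rsrc2 were the other three. These comparisons share the day 10 arrays.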

How the data were processed

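The deposited intensities come from Illumina MouseRef-8 v2.0 beadchips, 1 value per gene symbol and array with a detection p-value, per the file headers and the labels. They were not normalized between arrays. The authors' other deposited table holds log10 of the same intensities. The sources used here do not give the software or the probe summary. Negative controls were inferred from the detection p-values, and normexp background correction (offset 16), quantile normalization and log2 followed. Models were fitted to all 18 arrays in 6 groups with lmFit and eBayes (limma 3.58.1, R 4.3.3). Tested genes had a detection p under 0.01 on at least 3 arrays, and the number of arrays limits the precision. A gene was measured where its detection p was under 0.01 and its signal reached the lowest detected one. That signal, or the gene's own if higher, sets the bound. Old symbols were updated through RefSeq, 4903 of 18118. The code was tested on simulated data.

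The comparison, gene lists and the rule for measured genes were chosen with earlier results of these data known. Named genes were the markers Ins2, Ghrl, Gip and Serpini2, the first 4 of each list, up to 3 called genes with the largest rise and 3 with the largest fall per list, the 15 largest rises and 15 largest falls of all genes, and the 5 largest peaks and troughs. The 15 rises and 15 falls were ranked among called genes whose 3 against 3 arrays did not overlap. Sct, Pyy, Iapp, Sst, Fev, Nrarp, Krt8, Krt18, C1qb, C1qc, Psat1, Syt4 and Eif2s3y, with H2-DMb1, were named after their values were seen. Alternatives covered background, scaling, filter, arrays, the replicate number as a block and single arrays left out.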

Additional observations from a re-analysis of the deposited data

How the results depend on the processing

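With median scaling 4822 genes were higher and 2142 lower at day 10, and in the deposited signals 6418 were higher and 1090 lower, against 3593 and 3540 with quantile normalization. The cause was not tested. Gp2 and Reg1 turned to −0.34 and −0.39 with median scaling. Mdm2, Pdx1, Ptf1a and Vamp8 turned to 0.13, 0.071, 0.47 and 0.37 with it and to 0.39, 0.35, 0.71 and 0.62 in the deposited signals, where Iapp and Ppy turned to 0.50 and 0.021. Of 149 genes named, 126 kept their direction and their side of the threshold in all 22 alternatives, 8 reversed, 8 lost the call and 8 gained one in at least 1 alternative. The medians of 16 of 47 lists changed sign in some alternative. Leaving out 1 acinar or day 10 array gave 6904 to 6949 calls, against 7133. Same-numbered acinar and day 10 arrays did not deviate together (correlations of −0.036, −0.0077 and −0.037). With the replicate number as a block 7188 genes were called, 3626 higher and 3562 lower, and no named gene changed its call. With no filter on dim genes 18118 were tested, 4175 higher and 4813 lower. The counts against day 30 and against beta cells stayed within 1.5 times in every alternative run. Signal over background limits the dim group of bounded genes that lay at background. With negative controls as limma infers them the hormone median was 0.49 against 1.39.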

Other observations

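Further genes with large differences between day 10 and acinar cells had varied roles. Rgs4, a regulator of G protein signalling, had levels of 6.29, 6.38 and 6.23 in acinar cells and 9.56, 9.64 and 9.55 at day 10, and rose by 3.29 ± 0.13 (limma's adjusted p = 2.9e-12). Syn1 and Nefm, a synapsin and a neurofilament gene, were at least 5.73-fold and 4.26-fold higher (adjusted p = 2.3e-16 and 1.9e-08). Dnajc3, a chaperone of the endoplasmic reticulum, fell by 2.27 ± 0.087 (adjusted p = 1.4e-12).

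Several of the largest falls were genes of metabolism and signalling. Aldh1l2, a folate enzyme of mitochondria, had levels of 11.26, 11.26 and 11.25 in acinar cells and 7.43, 7.38 and 7.62 at day 10, and fell by 3.78 ± 0.078 (adjusted p = 2.2e-15). Igfbp5, which binds insulin-like growth factors, fell by 4.05 ± 0.22 (adjusted p = 7.2e-11). P2ry14, a receptor for UDP-sugars, and Rarres2, which encodes the adipokine chemerin, were at least 14.6-fold and 16.4-fold lower (adjusted p = 3.1e-12 and 9.1e-08). These 4 genes were taken from the largest falls among called genes whose groups did not overlap. Their separation was therefore set by that rule.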
